A study of Mus musculus with 38 samples.

Results

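The genes of cholesterol and fatty acid synthesis were followed in neural stem/progenitor cells (NSPCs) cultured from the subventricular zone of young adult and aged mice. They were 33 genes taken by symbol from a list, out of 25965 genes in the RNA table and 25888 in the chromatin table, and all 33 were found in both. The list held 16 genes of sterol synthesis, 5 that control the SREBP transcription factors, 2 of sterol transport and 10 of lipogenesis. The question was how their RNA, promoter histone marks and promoter DNA methylation varied with the age of the mouse, with the derivation and with the strain.

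Cells make cholesterol from acetyl-CoA through mevalonate, isoprenoid and squalene intermediates, and make fatty acids from acetyl-CoA by carboxylation, chain synthesis, elongation and desaturation. SREBP transcription factors drive the genes of both branches. The SREBP precursors are held in the endoplasmic reticulum by Insig proteins through the escort protein Scap, and they are released when membrane sterol is low. Dividing neural progenitors build new membrane and depend on their own lipid synthesis, since lipoproteins from the blood scarcely reach the brain.

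All libraries came from male mice with no transgene or drug treatment, and the cells grew as floating neurospheres with EGF and FGF until the second passage after dissection. In C57BL/6JBabr mice (C57BL/6J/Babr in the study), tissue of 5 mice was pooled for each derivation, and there were 3 derivations at 3 months and 3 at 18 months. RNA was also sequenced from C57BL/10 mice, with 1 library at 3 months and 1 at 18 months. The C57BL/10 mice were kept in another animal facility, so strain, facility and derivation cannot be told apart. H3K4me3, a mark of active promoters, and H3K27me3, a Polycomb mark of repressed ones, were each profiled in 3 samples per age. Their promoter values were deposited as 1 value per age and mark, which shows no spread between samples. DNA methylation was read in 3 bisulfite (BS) libraries per age, which report 5mC and 5hmC together, and in 3 oxidative bisulfite (oxBS) libraries per age, which report 5mC alone.

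The RNA libraries held 16952486 to 41053972 reads, and no member had fewer than 97 reads in any library. All 8 NSPC markers were detected in them, with a summed level of 6218 to 9125 RPM (reads scaled to the size of the library), against 5.25 to 7.76 RPM for 6 microglial and 1.47 to 2.93 RPM for 4 endothelial markers. None of these markers was at 0 in all libraries. Summed RPM of 8 astrocyte markers was 1917 to 2745, of 8 oligodendrocyte lineage markers 1169 to 1644, of 5 neuronal markers, 4 of them in the table, 9.13 to 19.2, of 4 ependymal markers, 3 of them in the table, 51.5 to 132, and of 3 pericyte markers 0.795 to 1.55. Spread between libraries is the only error behind the p-values, and in such bulk samples a lower share of expressing cells and less RNA per cell cannot be told apart.

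Promoters of the group are shown first. The histone and methylation results below were read in wider windows of 5000 bp, around a start that was not always the annotated start of the gene. RefSeq (GRCm38.p6) gave a window of 300 bases around the start for 26 of the 33 genes. Both strands were searched for TCACNCCAC (a sterol regulatory element), CCAAT (NF-Y), CACGTG (E-box) and GGGCGG (Sp1). Some genes have more than 1 such window, and the 26 genes had 34. TCACNCCAC was in 1 of the 34, that of Hmgcs1, against 1.24% of all 32851 promoters. CCAAT was in 20 of the 34 (37.4% of all promoters), CACGTG in 6 (7.15%) and GGGCGG in 25 (35.7%). These matches are descriptions of the letters in the window, not binding sites, and a window without a match says nothing of the factor. Of the 4 promoters below, Hmgcs1 is shown for its sterol element, Insig1 as a feedback regulator, and Lss and Abca1 as genes that differed by strain in RNA. Capitals mark the motif matches on either strand. They lie at chr13:119690101-119690400 (+ strand), chr5:28071162-28071461 (+), chr10:76531355-76531654 (+) and chr4:53159846-53160145 (- strand).
Hmgcs1: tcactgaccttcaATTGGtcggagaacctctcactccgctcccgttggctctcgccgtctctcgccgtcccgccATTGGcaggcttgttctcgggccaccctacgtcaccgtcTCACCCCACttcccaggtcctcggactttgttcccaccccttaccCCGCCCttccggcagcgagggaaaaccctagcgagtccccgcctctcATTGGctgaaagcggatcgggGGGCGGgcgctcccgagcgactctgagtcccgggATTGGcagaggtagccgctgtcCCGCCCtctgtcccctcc
Insig1: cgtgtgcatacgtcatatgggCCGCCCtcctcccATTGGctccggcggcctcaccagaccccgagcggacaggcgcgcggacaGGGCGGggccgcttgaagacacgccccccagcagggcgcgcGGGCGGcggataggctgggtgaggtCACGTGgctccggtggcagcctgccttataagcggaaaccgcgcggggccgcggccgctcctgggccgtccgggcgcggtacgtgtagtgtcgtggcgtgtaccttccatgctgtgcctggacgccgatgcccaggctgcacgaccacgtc
Lss: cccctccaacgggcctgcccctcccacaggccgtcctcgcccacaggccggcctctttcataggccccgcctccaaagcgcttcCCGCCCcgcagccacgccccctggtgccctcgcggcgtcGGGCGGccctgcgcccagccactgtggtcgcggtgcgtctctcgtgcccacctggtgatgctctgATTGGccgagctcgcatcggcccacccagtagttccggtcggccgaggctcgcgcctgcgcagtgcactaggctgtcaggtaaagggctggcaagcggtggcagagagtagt
Abca1: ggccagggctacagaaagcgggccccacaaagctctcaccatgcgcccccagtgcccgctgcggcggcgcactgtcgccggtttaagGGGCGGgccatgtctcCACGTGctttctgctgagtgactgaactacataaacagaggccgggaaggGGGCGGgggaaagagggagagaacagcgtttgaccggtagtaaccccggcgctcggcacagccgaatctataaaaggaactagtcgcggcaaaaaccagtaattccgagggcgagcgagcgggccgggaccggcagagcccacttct

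The sterol element of Hmgcs1 stood among 4 CCAAT and 3 GGGCGG matches. The Insig1 window held 1 CCAAT, 1 CACGTG and 3 GGGCGG matches, and that of Lss 1 CCAAT and 2 GGGCGG. Abca1, which exports cholesterol and belongs to the response to high sterol, had no CCAAT match and held 1 CACGTG and 2 GGGCGG.

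Per length of exon, the lipogenic gene Scd2, a stearoyl-CoA desaturase, stood at the top with 376 ± 42.2 RPKM, the RPM per kb of exon (SD, n = 6 C57BL/6JBabr libraries). Hmgcs1, the synthase that makes HMG-CoA, followed with 141 ± 9.37 RPKM, and Insig1 with 99.1 ± 9.93 RPKM. Of the Insig1 transcript, 31.7% is also found elsewhere in the genome, as described below, and the part of this in its level was not tested. At the low end were Ebp, a sterol isomerase, with 6.92 ± 0.959 RPKM, Lpin1, a phosphatidate phosphatase, with 7.85 ± 0.656, and Hsd17b7, a sterol ketoreductase, with 9.58 ± 1.45. In this order 26 of the 32 neighbouring pairs lay closer together than the sum of their SDs, so most neighbours could not be ranked against each other.

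**Figure D1:**
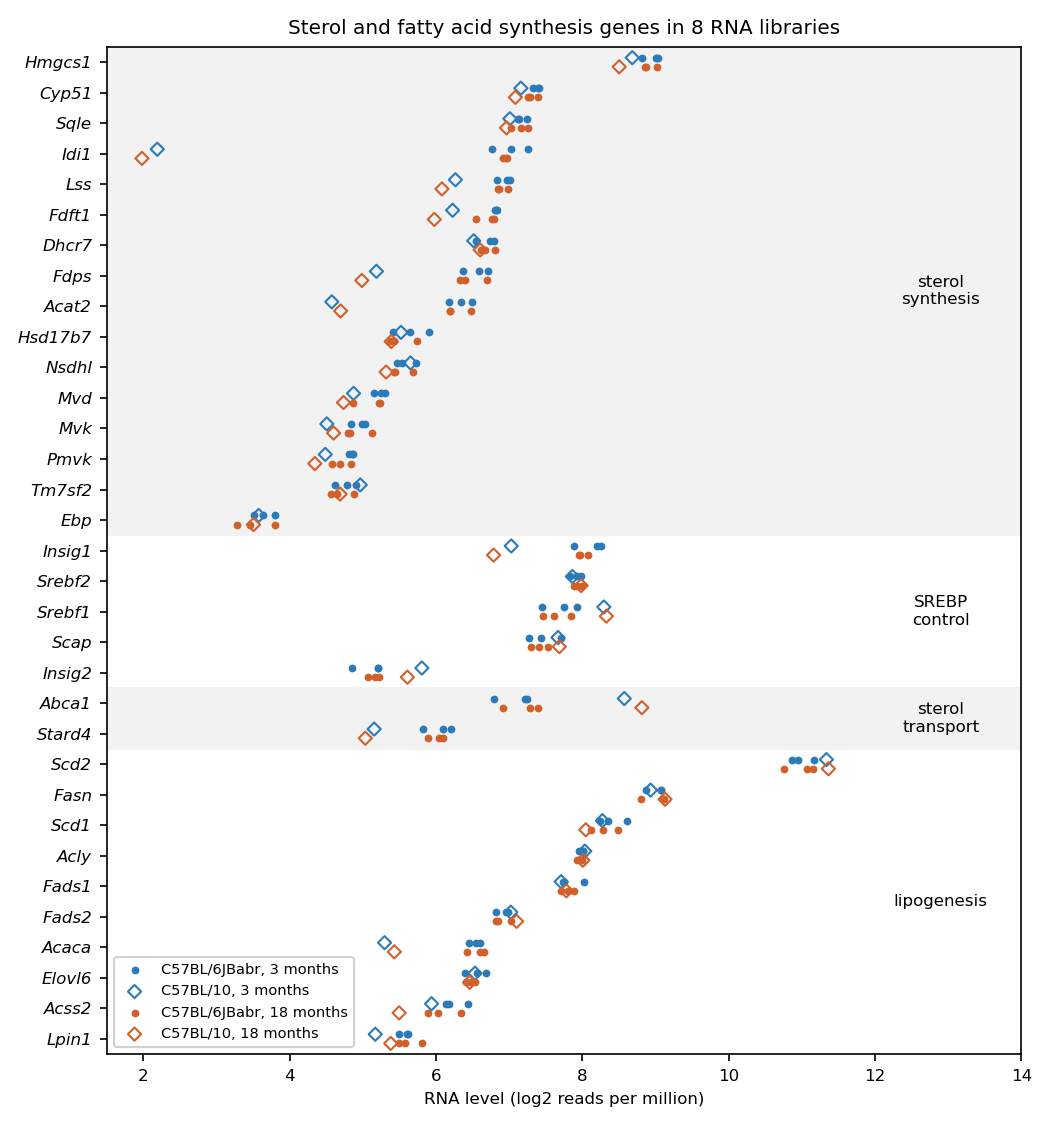
RNA level of the 33 genes, in log2 RPM on the horizontal axis, with 1 point per library. Filled circles are C57BL/6JBabr and open diamonds C57BL/10, blue at 3 months and orange at 18 months, and shading separates the roles. The circles of both ages lie together for nearly every gene, and the diamonds of Idi1 lie at 2.19 and 1.98, far to the left of its circles.

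Between 3 and 18 months in C57BL/6JBabr, RNA of the group moved little. In the limma fit across 14858 genes no gene passed an adjusted p of 0.05 (0% called), and so none of the 33 did. The study reports genes that differ by age from a limma moderated test on these derivations, and this fit called none of them. Why the 2 differ was not tested. At an unadjusted p under 0.05 limma gave 258 genes (1.74%) and 0 of the 33. After adjustment edgeR called 0 and DESeq2 4 of the 14858 genes, and neither called any of the 33. The differences, aged minus young, ran from -0.17 to 0.12 log2 RPM, and the 95% interval of all 33 lay within 0.5 log2 unit of 0. Half-widths of these intervals were 0.18 to 0.40, with a median of 0.26. With replicate number as a block, 74 genes were called (0.498%) and again 0 of the 33, and with that block over all 8 libraries 1.79% of genes and 0 of the 33.

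The signs leaned to lower values at 18 months without reaching a call. The estimate was below 0 for 25 genes and above 0 for 8, with a median of -0.05 log2 against 0.00 over all genes. In sterol synthesis 15 of 16 estimates were below 0 (median -0.06), in SREBP control 3 of 5 (median -0.06), in lipogenesis 6 of 10 (median -0.02) and in sterol transport 1 of 2. The genes share the same 6 libraries, and their signs are not independent of each other.

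Pmvk, which phosphorylates phosphomevalonate, was first in the order of the test. Its log2 RPM was 4.81, 4.86 and 4.85 at 3 months and 4.84, 4.58 and 4.69 at 18 months, a difference of -0.14 ± 0.10 (SE). Its limma adjusted p was 1.00, as was that of every other member. One aged library lay inside the young range and the other two lay below it.

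Fdft1, squalene synthase and the first committed step to sterols, was the one member whose age groups did not overlap, against 5.20% of all genes. Its values were 6.82, 6.80 and 6.83 at 3 months and 6.79, 6.55 and 6.76 at 18 months, and the gap between the groups was smaller than the spread of the aged libraries. The difference was -0.12 ± 0.09.

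Acss2, which makes acetyl-CoA from acetate, had the difference farthest below 0, -0.17 ± 0.13. It stood at 6.14, 6.18 and 6.44 in the young and 6.03, 5.89 and 6.34 in the aged libraries, lower at 18 months in each replicate number, although the groups overlapped. In the fit with replicate number as a block it alone passed 0.05 before adjustment (limma adjusted p = 0.533), where 8.27% of all genes had one.

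The remaining genes with the smallest p were Mvd, mevalonate diphosphate decarboxylase (-0.12 ± 0.12), Insig1 (-0.11 ± 0.11), Hsd17b7 (-0.14 ± 0.15), Ebp (-0.13 ± 0.16) and Scd1, a second stearoyl-CoA desaturase (-0.11 ± 0.14), none past the test. Their intervals all spanned 0. With a library left out Pmvk ranged from -0.21 to -0.077, Fdft1 from -0.16 to -0.042 and Acss2 from -0.29 to -0.070. In the same way Mvd ranged from -0.18 to -0.00091, Insig1 from -0.22 to -0.043, Hsd17b7 from -0.26 to -0.011, Ebp from -0.28 to -0.013 and Scd1 from -0.21 to -0.0045.

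None of the regulators passed the test by age, which no gene passed. Srebf2, the SREBP that chiefly serves cholesterol genes, read 7.83, 7.93 and 7.98 at 3 months and 7.88, 7.93 and 8.00 at 18 months. Srebf1, whose products serve fatty acid genes, read 7.45, 7.75 and 7.93 and then 7.47, 7.62 and 7.85. Both pairs of groups overlapped, with differences of 0.03 ± 0.09 and -0.06 ± 0.15.

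For Scap the values were 7.27, 7.44 and 7.71 in young and 7.30, 7.41 and 7.53 in aged libraries. Insig1 read 8.19, 7.89 and 8.25, then 7.97, 7.95 and 8.08, and Insig2 read 5.20, 4.84 and 5.21, then 5.23, 5.07 and 5.16. Again the ages overlapped, and the differences of Scap and Insig2 were -0.06 ± 0.12 and 0.06 ± 0.12.

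The C57BL/10 pair, with 1 library per age and so no test of its own, had differences of -0.44 (Acss2) to 0.24 (Abca1), with a median of -0.07 against -0.01 over all genes. For 26 of the 33 genes the sign was that of C57BL/6JBabr, against 65.2% of 14828 genes. The test of a different age effect between the strains (limma interaction) has 1 C57BL/10 library per age, so its spread comes from the C57BL/6JBabr libraries alone. It called 1 gene (0.00674%) and none of the 33, and edgeR called 0 genes. At an unadjusted p under 0.05 the interaction had 240 genes (1.62%) and none of the 33. The 95% intervals of the 33 reached from -0.89 (Acss2) to 0.88 (Abca1), so an age effect that differs by strain was not excluded by this test.

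A replicate number joins a young and an aged library, which the sample titles link by that number alone. Their deviations from the age means correlated at 0.66 (number 1), 0.18 (number 2) and 0.72 (number 3) over genes. With age in the fit, the replicate number was called for 3263 of 14858 genes (22.0%) by limma's F test, and for 8 of the 33, a share near the background. These were Abca1, Srebf1, Hsd17b7, Acss2, Scap, Scd1, Acat2 and Fdps. Their means over the pair of libraries of a number differed by 0.30 to 0.46 log2 between the highest and lowest number.

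Of the 8, 6 were highest in number 3 and 2 in number 1. Abca1 was at 6.85, 7.26 and 7.31 in numbers 1, 2 and 3 (limma adjusted p = 0.00244), and number 1 was below the others at both ages. Srebf1 was at 7.46, 7.68 and 7.89 (limma adjusted p = 0.00705), in the same order at 3 and 18 months. Scap, its escort, was at 7.28, 7.42 and 7.62 (limma adjusted p = 0.0319).

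Acss2 was at 6.09, 6.04 and 6.39 (limma adjusted p = 0.0185), Hsd17b7 at 5.51, 5.42 and 5.82 (limma adjusted p = 0.0182) and Scd1 at 8.23, 8.27 and 8.55 (limma adjusted p = 0.0355), each by limma. In these genes number 3 stood above the other numbers at both ages. Acat2, an acetoacetyl-CoA thiolase, and Fdps, farnesyl diphosphate synthase, had the other pattern. Acat2 was at 6.49, 6.27 and 6.18 (limma adjusted p = 0.0427) and Fdps at 6.70, 6.45 and 6.39 (limma adjusted p = 0.0456), highest in number 1. Scd1 did not pass with edgeR (edgeR adjusted p = 0.0580) or after quantile normalization (limma adjusted p = 0.132).

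The count depended on single libraries. Without the young library of number 3, or without the aged one, only Abca1 was called, where 9.98% and 9.94% of all genes were. Without a library of number 1 it was 7 (young; 23.2% of all genes) or 9 (aged; 26.0%). Without the young library of number 2 the count was 18 (46.0% of all genes), and without the aged one 21 (44.4%). Among other genes of the pathway, over all 6 libraries and where 22.0% of all genes were called, the numbers differed for 1 of 5 further sterol synthesis genes, 1 of 7 of SREBP processing and degradation, 6 of 15 of uptake, storage and export and 7 of 22 of further lipogenesis. Of 10 cell cycle markers 9 were called, of 8 NSPC markers 4, of 8 astrocyte markers 4, of 8 oligodendrocyte lineage markers 5, of 3 ependymal markers 2 and none of the endothelial, microglial, neuronal or pericyte markers tested, and the part of these cells in the result was not tested.

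Between the strains 18 of the 33 genes were called, where 29.7% of all genes were. With the libraries of a set treated as a block 11 were called, where 16.2% of all genes were. The 6 with the most sequence found elsewhere in the genome were among both. That property of the sequence is given first. For each gene, stretches of 50 bases were taken every 10 bases along its longest protein-coding transcript and looked for elsewhere in GRCm38. Of the 33 genes, 21 had no stretch elsewhere, 6 had up to 15% elsewhere and 6 had more, namely Idi1 (80.2%), Acaca (65.5%), Fdps (55.2%), Acat2 (36.7%), Insig1 (31.7%) and Fdft1 (17.0%). The copies were mostly processed pseudogenes, which carry the spliced sequence. They were Gm13502 and Gm35570 for Idi1, Gm5182 for Acaca, Gm3571 and Gm5873 for Fdps, Gm37784 for Insig1 and Gm6781 for Fdft1. Part of Fdps was also found in Gm14661, an antisense gene. For Acat2 the copy was the neighbouring coding gene Acat3.

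A stretch of coding sequence across an exon junction is shown for 5 of these genes, because such a run of letters is not contiguous in the gene itself and is found whole in its copy. Each has 50 bases in the sense of the gene, from the GENCODE vM21 transcript, and capitals mark the exon after the junction. The Idi1 stretch joins exons 2 and 3 and occurs in Gm13502 at chr2:53696638-53696687 (- strand). That of Acaca joins exons 10 and 11 and occurs in Gm5182 at chr12:10152202-10152251 (+). The Fdps stretch joins exons 3 and 4 and occurs in Gm3571 at chr10:93778776-93778825 (+). The Insig1 stretch joins exons 4 and 5 and occurs in Gm37784 at chr3:69963419-69963468 (+). That of Fdft1 joins exons 4 and 5 and occurs in Gm6781 at chr14:18531532-18531581 (+).
Idi1: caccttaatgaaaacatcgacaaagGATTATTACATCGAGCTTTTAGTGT
Acaca: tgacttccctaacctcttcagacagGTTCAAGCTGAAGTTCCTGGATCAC
Fdps: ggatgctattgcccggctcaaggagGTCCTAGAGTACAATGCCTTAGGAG
Insig1: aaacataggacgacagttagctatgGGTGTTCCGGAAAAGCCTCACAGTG
Fdft1: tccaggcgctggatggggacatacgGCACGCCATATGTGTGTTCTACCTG

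Of the coding junctions that such a stretch could span, the copy held 3 of 4 for Idi1, 37 of 55 for Acaca, 3 of 10 for Fdps, 1 of 4 for Insig1 and 3 of 9 for Fdft1. A read that lies within such sequence matches both places equally well.

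Over the 14593 genes searched, of 14828 in the strain fit, the difference fell as the shared part grew. The median of C57BL/10 minus C57BL/6JBabr was 0.21 log2 for 9294 genes with no stretch elsewhere, -0.17 for 481 genes with over 15 and up to 30%, -0.87 for 386 genes up to 50%, -1.83 for 366 genes up to 75% and -4.74 for 334 genes above that. The share of genes called lower was 3.13% in the first of these ranges and 97.0% in the last. All 6 members over 15% were called lower in C57BL/10. How reads with several matches were treated in each set of libraries was not stated in the methods or labels at hand, and its part in the result was not tested.

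Taken as deposited, the strain term was called for 4405 of 14828 genes (29.7%) by limma beside age, and for 18 of the 33. Of these 15 were lower in C57BL/10, where 11.5% of all genes were, and 3 were higher, where 18.2% were. The median difference was -0.17 against 0.17 over all genes, and -0.35 over the 16 sterol synthesis genes. This fit takes the 8 libraries as independent, although those of replicate numbers 1 and 3 deviate together. With each set of libraries as a random block, limma called 11 of the 33 (16.2% of genes), and Pmvk, Mvk, Mvd, Cyp51, Hmgcs1, Acss2 and Lpin1 were no longer called. Leaving out the C57BL/10 library of 3 months left 9 calls (9.74% of genes) and leaving out that of 18 months left 10 (12.7%). Those 7 genes and Srebf1 were called in neither case. edgeR on the recovered reads called 19 of the 33 (17.5% of genes). Both C57BL/10 libraries lay below all 6 others for 14 members, where 13.0% of genes did, and above them for 4, where 31.6% did.

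Idi1, isopentenyl diphosphate isomerase, had the widest difference. It read 7.25, 6.77 and 7.02 in the young and 6.96, 6.91 and 6.97 in the aged C57BL/6JBabr libraries, and 2.19 and 1.98 in the young and aged C57BL/10 libraries. Both C57BL/10 values lay far below the rest, 29.8-fold lower by the fit (-4.90 ± 0.11 log2, limma adjusted p = 5.96e-10). It is also the member with the largest shared part, and its difference was close to the median of genes like it in that respect.

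Acat2 read 6.50, 6.35, 6.17, 6.48, 6.19 and 6.19 in C57BL/6JBabr and 4.58 and 4.70 in C57BL/10, a 3.20-fold lower level (-1.68 ± 0.11, limma adjusted p = 2.01e-06). Fdps read 6.71, 6.58, 6.37, 6.70, 6.33 and 6.40 against 5.19 and 4.99, 2.69-fold lower (-1.43 ± 0.12, limma adjusted p = 1.23e-05). The strains did not overlap in either gene, and both have over 30% of shared sequence.

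Acaca, acetyl-CoA carboxylase and the entry to fatty acid synthesis, read 6.46, 6.55, 6.60, 6.42, 6.65 and 6.60 against 5.30 and 5.43 in C57BL/10, 2.27-fold lower (-1.18 ± 0.08, limma adjusted p = 3.68e-06). Insig1, in the C57BL/10 libraries at 7.03 and 6.79, was 2.22-fold lower (-1.15 ± 0.10, limma adjusted p = 2.36e-05). Fdft1, at 6.23 and 5.98, was 1.58-fold lower (-0.66 ± 0.08, limma adjusted p = 0.000288). No C57BL/10 value reached the C57BL/6JBabr range, and these 3 genes also have shared sequence.

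Hmgcs1, with 8.48% of shared sequence, read 9.04, 8.82, 9.01, 8.87, 8.86 and 9.02 in C57BL/6JBabr and 8.68 and 8.50 in C57BL/10. Its strains did not overlap either, and the fit gave -0.34 ± 0.10 (limma adjusted p = 0.0271).

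The comparison was therefore repeated, after the pattern had been seen, on the 9294 genes with no stretch elsewhere, with each library centred on their median. It called 476 genes (5.12%), and 9 of the 21 members left. Lower in C57BL/10 were 8 of the 21, where 3.00% of all these genes were lower, and 1 was higher, where 2.12% were. All 10 of the sterol synthesis genes left had an estimate below 0, with a median of -0.37 against 0.04 over all genes, and 5 of them passed the test, namely Lss, Pmvk, Mvk, Mvd and Cyp51. The other 3 lower calls were Stard4, Acss2 and Lpin1, and the higher one was Abca1. With each set of libraries as a random block 4 of the 21 were called, Abca1, Lss, Pmvk and Stard4, where 1.78% of these genes were. With either C57BL/10 library left out only Lss and Stard4 of the 21 were called, where 0.334% (without that of 3 months) and 0.765% (without that of 18 months) of these genes were.

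Lss, lanosterol synthase, which closes the sterol rings, read 7.01, 6.84 and 6.97 in the young and 6.86, 6.85 and 6.99 in the aged C57BL/6JBabr libraries, and 6.26 and 6.08 in C57BL/10. Both C57BL/10 values lay below all 6 others. The difference was -0.75 ± 0.08 (limma adjusted p = 9.06e-05), and -0.92 ± 0.08 among the genes with no shared stretch (limma adjusted p = 0.000612).

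Stard4, which carries cholesterol between membranes, read 6.21, 5.83 and 6.10 in the young and 6.09, 5.89 and 6.04 in the aged C57BL/6JBabr libraries, and 5.15 and 5.03 in C57BL/10. The strains did not overlap. The difference was -0.93 ± 0.11 (limma adjusted p = 0.000143), and -1.10 ± 0.11 among the genes with no shared stretch (limma adjusted p = 0.000812).

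Mvk, Pmvk and Mvd turn mevalonate into isopentenyl diphosphate. Among the genes with no shared stretch Mvk, mevalonate kinase, differed by -0.55 ± 0.10, Pmvk by -0.53 ± 0.08 and Mvd by -0.54 ± 0.09. Cyp51, the lanosterol demethylase, differed by -0.39 ± 0.07, Acss2 by -0.63 ± 0.12 and Lpin1 by -0.50 ± 0.10. These 6 genes had adjusted limma p of 0.00746 to 0.0229, and with each set of libraries as a random block 0.0486 (Pmvk) to 0.121 (Cyp51), with Mvd at 0.0532 and Mvk at 0.0669. None of the 6 passed with either C57BL/10 library left out. Sqle, squalene epoxidase, at -0.34 ± 0.08 (limma adjusted p = 0.0521), and Dhcr7, the last step of the pathway, at -0.31 ± 0.09 (limma adjusted p = 0.0878), did not pass. Nsdhl at -0.23 ± 0.12, Ebp at -0.21 ± 0.14 and Tm7sf2 at -0.08 ± 0.10 did not pass either.

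Abca1 went the other way. It read 6.79, 7.24 and 7.22 in the young and 6.91, 7.29 and 7.40 in the aged C57BL/6JBabr libraries, and 8.57 and 8.81 in C57BL/10. Both C57BL/10 libraries lay above all others, 2.93-fold higher by the fit (1.55 ± 0.15, limma adjusted p = 4.69e-05), and the difference among the genes with no shared stretch was 1.38 ± 0.15 (limma adjusted p = 0.00179). Without a C57BL/10 library the latter did not pass (limma adjusted p of 0.0527 and 0.0696).

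Of the regulators with no shared sequence, Srebf1 read 8.29 and 8.33 and Insig2 read 5.81 and 5.61 in C57BL/10, above all 6 C57BL/6JBabr libraries in both cases. As deposited both were called higher, Srebf1 by 0.63 ± 0.14 (limma adjusted p = 0.00815) and Insig2 by 0.59 ± 0.12 (limma adjusted p = 0.00563). After centring on the genes with no shared stretch they no longer passed, at 0.46 ± 0.13 (limma adjusted p = 0.0793) and 0.42 ± 0.12 (limma adjusted p = 0.0841). Srebf2 read 7.86 and 7.98 in C57BL/10, inside the range of the others, with an estimate of 0.00 ± 0.08 as deposited and -0.17 ± 0.08 after centring. Scap, at 7.67 and 7.69, differed by 0.24 ± 0.12 and 0.06 ± 0.11, neither past the test.

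In lipogenesis 3 of 10 genes were called lower as deposited and none higher, against 10 of 16 lower and none higher in sterol synthesis, where 11.5% of all genes were lower. With each set of libraries as a random block the lower calls were 1 of 10 and 5 of 16, where 9.40% of all genes were. Without shared sequence the counts were 2 of 5 and 5 of 10, where 3.00% of such genes were lower, and with the random block 0 of 5 and 2 of 10, where 1.09% were. Fasn, the fatty acid synthase, Acly, which makes cytosolic acetyl-CoA, and Fads2, a fatty acid desaturase, had estimates of -0.15 ± 0.12, -0.13 ± 0.07 and -0.02 ± 0.08 after centring, none past the test. Scd2, with a small shared part of 2.96%, read 11.34 and 11.36 in C57BL/10, above all 6 others, at 0.35 ± 0.15 as deposited (limma adjusted p = 0.108). Elovl6, a fatty acid elongase, and Fads1, another desaturase, were at -0.01 ± 0.09 and -0.07 ± 0.10 as deposited. The difference between the roles was not tested.

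Other genes of the pathway were counted in the same way, where 18.2% of all genes were higher and 11.5% lower as deposited, and 2.12% and 3.00% among genes with no shared stretch. Of 5 further sterol synthesis genes 2 were lower in C57BL/10 and none higher, and of the 3 with no shared stretch 2 were lower. Of 7 genes of SREBP processing and degradation 6 were called higher as deposited, but 0 of the 4 with no shared stretch were called after centring. Of 15 genes of uptake, storage and export 5 were higher and 1 lower, and of 11 with no shared stretch 1 was higher and 1 lower. Of 22 further lipogenic genes 4 were higher and 2 lower, and of 17 with no shared stretch none was higher and 1 lower. With each set of libraries as a random block, 2 of the 7 genes of SREBP processing and degradation were higher, 3 of 15 of uptake, storage and export were higher and 1 lower, 3 of the 22 lipogenic genes were higher and none lower, and none of the 5 sterol synthesis genes was called, where 6.82% of all genes were higher and 9.40% lower. Among the genes with no shared stretch that block left 1 higher and 1 lower call, both of 11 in uptake, storage and export, and none in the other lists, where 0.689% of such genes were higher and 1.09% lower. At 18 against 3 months none of these genes was called, also with replicate number as a block.

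Markers of dividing cells were counted too. All 10 were called lower in C57BL/10 as deposited (11.5% of all genes), with a median of -0.79, and 6 of the 10 have shared sequence. Of the 4 without, 2 were lower after centring (3.00% of such genes). With the random block 8 of the 10 (9.40% of all genes) and 1 of the 4 (1.09% of such genes) were lower. Their summed level was 658 to 996 RPM in the C57BL/6JBabr libraries, and 383 and 451 RPM in C57BL/10. Of the 8 NSPC markers none was called. Of 8 astrocyte markers 1 was higher and 2 lower, also among the 7 with no shared stretch (none higher and 1 lower of the 7 with the random block), 1 of 7 oligodendrocyte lineage markers tested was lower and 1 of 4 neuronal markers higher, and no endothelial, ependymal, microglial or pericyte marker tested was called. The part of these cells in the strain result was not tested.

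The shared part of the sequence also moved with the replicate number, though far less. The median of number 1 minus the mean of numbers 2 and 3 was -0.03 log2 for genes with no stretch elsewhere and 0.17 for genes over 75%, while the medians of the age difference over the same ranges ran from -0.04 to 0.02. For genes over 30 and up to 50% the median of number 1 minus the others was 0.11, and for those up to 75% 0.12. Members of these ranges stood at 0.26 (Acat2), 0.04 (Insig1), 0.28 (Fdps) and -0.16 (Acaca). The part of shared sequence in the calls of Acat2 and Fdps was not tested. Among genes with no shared stretch, after centring, Abca1, Acss2, Srebf1 and Nsdhl were called by replicate number, 4 of 21, where 22.9% of these genes were. Scap did not pass there (limma adjusted p = 0.0575).

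**Figure D2:**
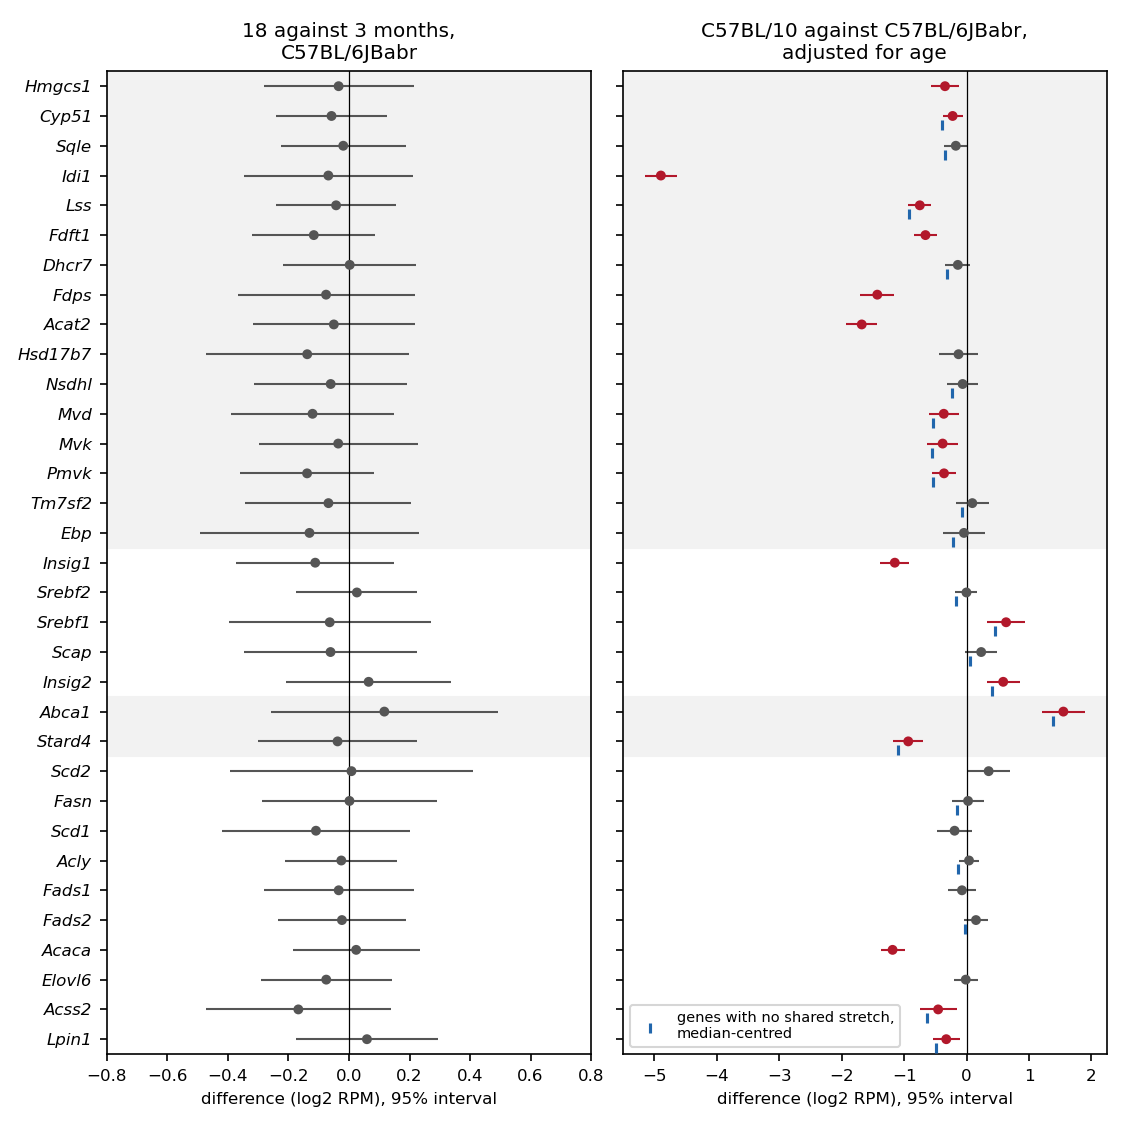
Fitted differences of the 33 genes in log2 RPM with 95% intervals, by age at left and by strain at right, on different horizontal scales. Red points had an adjusted limma p under 0.05, and blue ticks give the strain difference of the 21 genes with no shared stretch after centring on the median of such genes. All intervals at left cross 0 and stay within 0.5, while 18 points at right are red, where 29.7% of all genes were called.

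At the promoters every member carried H3K4me3 above the median of all genes, and H3K27me3 of most members was low. Of each gene 1 window of 5000 bp around a transcript start was used, the one with the highest H3K4me3. Its H3K4me3 was 4.63 to 6.60 log2 RPM at 3 months and 4.71 to 6.79 at 18 months, where the median over 25888 genes was 3.95 and 4.08. H3K27me3 was -2.19 to 0.91 and -2.25 to 0.94, where the median over all genes was 0.39 and 0.34, and no member exceeded a log2 RPM of 1 at either age, where 37.4% of all genes did. Input chromatin had a median of 0.90 and 0.88 in the same windows, and only Abca1 had H3K27me3 above its own Input, by 0.32 at 3 and 0.53 at 18 months. By its mean over both ages the H3K27me3 of Abca1 stood at percentile 64.0 of all genes and that of Stard4 at 51.3.

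A window was counted as changed at 1.5-fold or more with a log2 RPM above 1 at 1 age, with 1 value per age and so no test. No member was changed in H3K4me3 (0.212% of all windows). In H3K27me3 1.5% of all windows were changed, but no member exceeded the minimum, so the rule could call none of them whatever its change, and nothing is read from their 0. H3K4me3 was higher at 18 months in all 33, by 0.01 to 0.32 with a median of 0.21. Over all genes the median was 0.15, and over the 12966 genes with a mean H3K4me3 above 4 it was 0.22. The direction depended on the scaling. After quantile normalization 15 of the 33 were higher and 18 lower, at -0.20 to 0.13, with a median of -0.01 against 0.00 over all genes. With Input subtracted 32 were higher and 1 lower, at -0.12 to 0.74, with a median of 0.21 against 0.01 over all genes. That background includes genes with little H3K4me3. Over the 12966 genes with a mean H3K4me3 above 4 the median change of Input was 0.05, beside 0.22 for H3K4me3. Their median with Input subtracted was not taken, so the 0.21 has no background of like promoters.

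The widest changes of H3K4me3 were in Nsdhl, a sterol dehydrogenase (4.71 to 5.03), Cyp51 (5.83 to 6.15) and Fads2 (6.08 to 6.36), and after quantile normalization their differences were 0.13, 0.09 and 0.05. The least was in Srebf1 (5.29 to 5.30), whose window, chr11:60207892-60212892, lay at a start inside the gene's bounds of chr11:60199089-60222581. Such an internal start, over 2500 bp from the annotated start of the gene, was used for 4 members, at 50139 bp for Acaca, 12189 for Srebf1, 7089 for Dhcr7 and 4911 for Insig2. For H3K27me3 the widest were Acly, which fell by 1.92 from 0.42, Scd2, which fell by 1.22 from 0.22, and Fads1, which fell by 0.90 from -0.06, all from levels below Input. After quantile normalization these differences were -1.78, -1.08 and -0.74. By the mean over both ages the highest H3K27me3 was on Abca1 (0.91 and 0.94), Stard4 (0.59 and 0.22) and Insig1 (0.08 and 0.04).

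With Input subtracted, 1 member, Dhcr7, passed the fold rule for H3K4me3. Its H3K4me3 went from 5.13 to 5.34 while its Input went from 0.90 to 0.37, both at the internal start, and 743 windows passed in all.

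5mC was read at the same windows, internal starts included, and was low in most of the group. In the oxBS libraries the mean was 3.55% to 44.1%, with a median of 18.1% against 34.0% over 23797 windows tested. Within 500 bp of the start it was 0% to 46.2% with a median of 0.212%, the top value resting on 13 calls at Idi1. The start used for Idi1 lay 1568 bp from the annotated start of the gene, and that for Cyp51 1365 bp. In these genes the 500 bp did not reach the annotated start. Calls per window and library numbered 20 to 290 in oxBS and 31 to 390 in BS.

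No window was called by age with edgeR, of the 33 or of all, in oxBS (0% of 23797) or in BS (0% of 24544). At an unadjusted p under 0.05 there were 1128 windows (4.74%) and 1 member in oxBS, and 1099 windows (4.48%) and no member in BS. The differences, aged minus young, were -11.3 to 7.24 percentage points in oxBS and -9.78 to 6.89 in BS, with 15 and 16 of the 33 below 0.

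Cyp51 was the member with an unadjusted p under 0.05. Its 5mC was 21.6%, 17.9% and 25.9% at 3 months and 12.6%, 16.6% and 6.52% at 18 months, on at least 88 calls a library. The ages did not overlap, as in 4.57% of all windows with lower and 5.94% with higher values at 18 months, and the means were 21.8% ± 3.96 and 11.9% ± 5.05 (SD, n = 3 each). The edgeR adjusted p was 0.993. In BS, Cyp51 was at 17.5% ± 3.25 and 15.8% ± 3.79, with overlapping ages. The ages also did not overlap in Fads2 in oxBS, with higher values at 18 months, and in Dhcr7 in BS, with lower ones, as in 4.50% of all BS windows (5.09% with higher ones). These were 2 of 33 members in oxBS and 1 of 33 in BS, shares no larger than those of all windows.

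Stard4, at 30.1% ± 8.47 and 20.2% ± 7.69, and Acat2, at 37.0% ± 10.3 and 25.7% ± 8.56 (SD, n = 3 each), came next in oxBS, with overlapping ages. With a library left out their differences were -14.4 to -5.16 and -15.5 to -5.40 percentage points. In BS the smallest p were at Dhcr7, 36.2% ± 3.37 against 26.4% ± 4.55, Ebp, 36.4% ± 6.23 against 27.4% ± 7.88, and Fasn, 6.03% ± 1.73 against 9.55% ± 4.17. With a library left out these differed by -12.4 to -8.21, -12.2 to -4.62 and 1.16 to 5.09 percentage points. None passed the test. The highest mean 5mC in oxBS was at Pmvk (44.1%), Tm7sf2, a sterol reductase (42.6%), and Mvk (35.6%). The highest means of 5mC and 5hmC together, in BS, were at Tm7sf2 (40.0%), Srebf1 (38.4%) and Acat2 (37.5%). Pmvk was at 36.6% in BS, below its oxBS value although BS also counts 5hmC. The lowest mean in both assays was at Hmgcs1, whose promoter is printed above, with 3.55% in oxBS and 4.74% in BS.

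**Figure D3:**
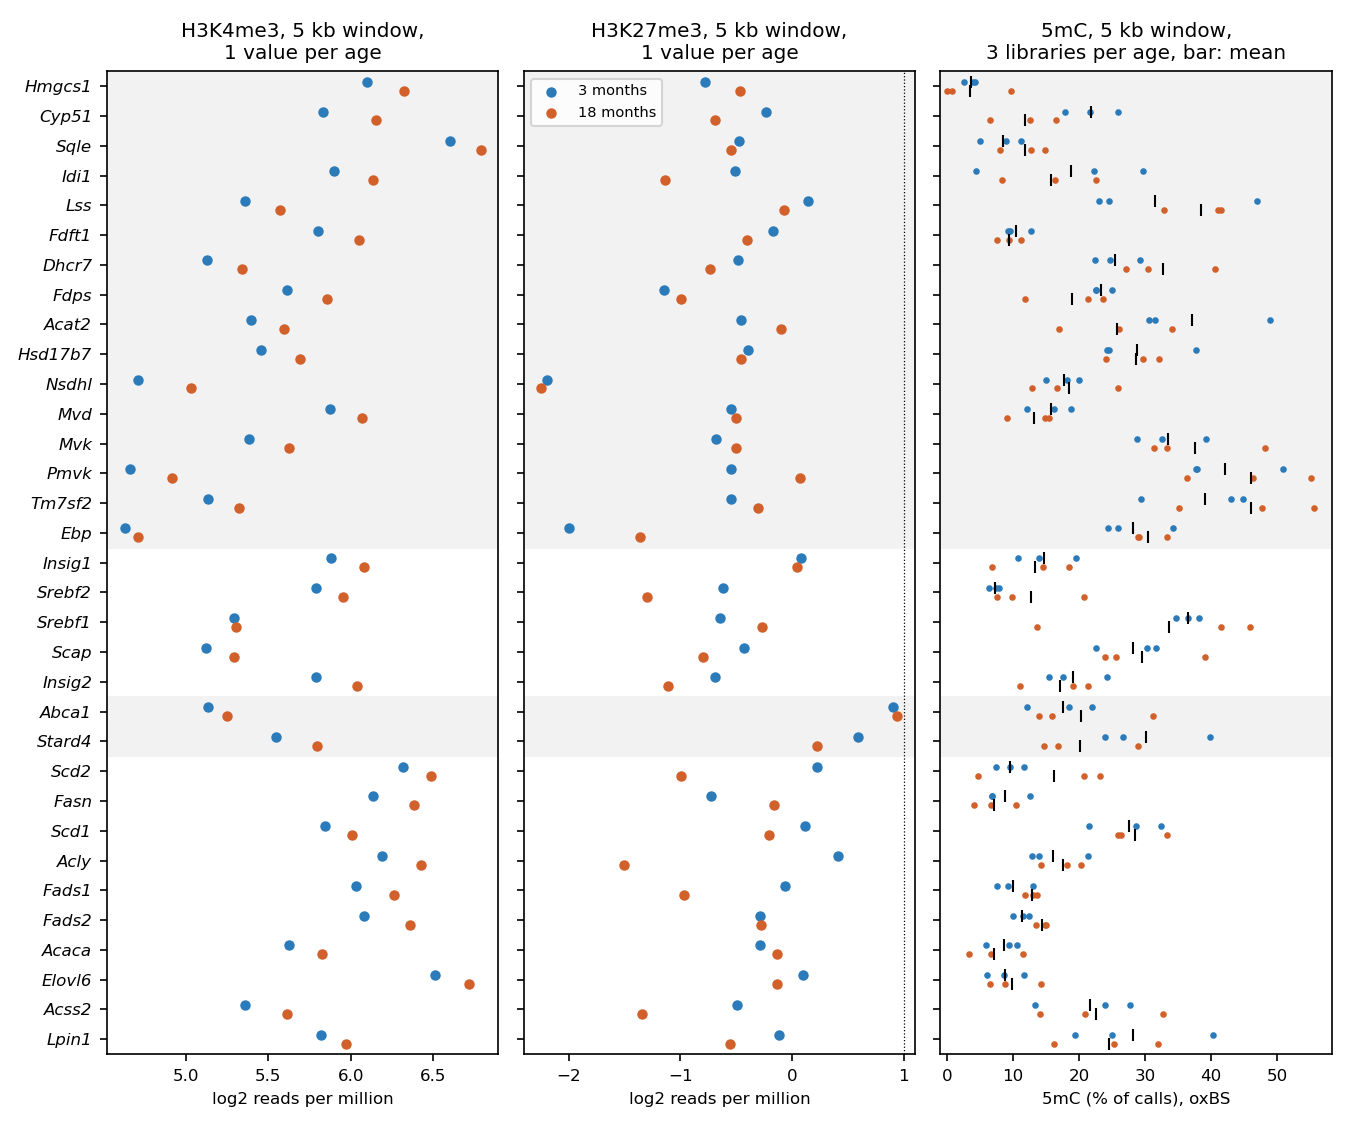
Promoter marks of the 33 genes, blue at 3 months and orange at 18 months, with H3K4me3 and H3K27me3 (1 value per age, log2 RPM) in the left and middle panels and 5mC from oxBS (% of calls, 3 libraries per age as points, means as bars) at right. The dotted line marks a log2 RPM of 1. Every orange point of H3K4me3 lies to the right of the blue one, by at most 0.32, and the 5mC points of the ages mostly intermingle.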

How the data were processed

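The members and lists were chosen with earlier results of these data known. The authors deposited log2 RPM per gene for each RNA library and log2 RPM per promoter window for each mark, and counts of methylated and unmethylated calls per position for each BS and oxBS library. Builds and tools per the labels were GRCm38, Trim Galore 0.4 and 0.3.7, Bowtie2 2.2.5, STAR 2.3.0 and Bismark 0.12.5. How reads with several matches were counted was not stated there or in the methods read here. Up to 1000 reads, 100% of the RNA values were whole multiples of 1 read within a tolerance of 0.02, and edgeR and DESeq2 were run on these recovered reads.

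Tests on genes averaging -2 log2 RPM or more were made with limma 3.58.1 (trend, Benjamini-Hochberg, threshold 0.05). Methylated and unmethylated calls were summed 2500 bp on either side of the start, with at least 10 per library, and tested with edgeR 4.0.16 (quasi-likelihood, a term per library). DESeq2 was version 1.42.0 and R 4.3.3. Named were the 8 genes with the smallest p per RNA comparison, 5 regulators, the 3 per length at each end, the 3 with the largest change and highest H3K27me3, and the 3 with the smallest p and highest level per methylation assay. Other genes were named after their values were seen. Deviations of libraries with the same replicate number from their age means had correlations of 0.66, 0.18 and 0.72 over genes. Libraries of numbers 1 and 3 thus deviated together, and those of number 2 little. The C57BL/10 set has 1 library per age, so its pairing could not be checked. Scripts were tested on simulated data. The simulated libraries were independent, so neither the correlation within a set of libraries nor shared sequence was part of that check.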

Additional observations from a re-analysis of the deposited data

How the results depend on the processing

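At 18 against 3 months 0 of the 33 genes was called under every alternative run: edgeR with TMM, DESeq2, quantile normalization, log2(RPM + 1), both filters, the replicate block over 6 and over 8 libraries, genes with no shared stretch, and each library left out. Over all genes limma and edgeR called 0, DESeq2 4 and the replicate block 74, or 266 over 8 libraries. Estimates near 0 changed sign. Insig2 was -0.00086 with the block over 8 libraries, and with a library left out Insig2 ranged from -0.056 to 0.13, Srebf1 from -0.19 to 0.046, Scap from -0.16 to 0.056 and Srebf2 from -0.016 to 0.060. By replicate number 8 members were called, 4 of 21 among genes with no shared stretch (2122 genes), and 1 to 21 with a library left out. By strain 18 were called, 9 of 21 among genes with no shared stretch (476 genes against 4405), and 9 to 17 with a library left out. The direction of Srebf2 by strain was -0.048 to 0.046 with a library left out. edgeR called 19 members by strain and 2592 genes. With each set of libraries as a random replicate block, limma called 11 members by strain and 2405 genes, or 4 of 21 and 165 genes among those with no shared stretch, where 2 members were called with either C57BL/10 library left out. The strain term cannot be estimated with a fixed replicate block, and the interaction not without a C57BL/10 library. For H3K4me3 1 member passed with Input subtracted and 0 under the other alternatives, and windows passing numbered 55, against 5 at 2-fold, 743 with Input subtracted and 149 over all 72923 transcript windows. For H3K27me3 0 members passed, which follows from the minimum, since none exceeded it and of their 136 transcript windows 1 did (Acaca), and windows numbered 389, against 38 at 2-fold, 808 with Input subtracted and 941 over all transcript windows. No methylation alternative called a member. The replicate block called 1 BS window, and with a library left out 0 to 1 windows were called in each assay. Within 500 bp of the start the sign turned for Stard4 in oxBS (0.901 percentage points) and Ebp in BS (5.78). The cause of these shifts was not tested. The genes with no shared stretch and the random block were chosen after seeing the data. Leaving out a C57BL/10 library leaves 1 in that strain, which is then assumed to vary like the others.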
